A study of Mus musculus with 12 samples.

Results

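The mouse mitochondrial genome encodes 37 genes, and all 37 were found among the 52550 gene identifiers of this RNA sequencing study of mouse embryonic stem cells. They were chosen by their symbol, which begins with mt- in the GENCODE M21 annotation, and comprise 13 protein-coding, 2 ribosomal RNA (rRNA) and 22 transfer RNA (tRNA) genes. The 12 libraries fall into 6 groups of 2. Unmodified cells in 2iL (serum-free N2 and B27 medium with LIF, the MEK inhibitor PD0325901 at 1 µM and a GSK3 inhibitor) were given JQ1 or DMSO. GSK3 knockout cells in serum/LIF were given JQ1 or DMSO, and so were unmodified cells in serum/LIF, a medium with 15% fetal bovine serum and 1000 U/ml LIF. JQ1, an inhibitor of the BET bromodomain proteins that bind acetylated chromatin, was used at 100 nM, and cells were harvested at 60 h. The labels do not say which GSK3 gene or genes the knockout affects, or how many clones it comprises. Serum/LIF cells were kept on mitomycin-treated embryonic fibroblasts and moved to 0.2% gelatin before the experiment. Libraries were made with an mRNA-seq kit from 1 µg RNA, and nothing says whether the 2 libraries of a group came from separate cultures, so p-values measure the spread between libraries, which may be technical.

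The circular mitochondrial genome is transcribed from both strands as long precursors, which are cut mostly at the tRNAs that lie between the other genes. Most of the messenger RNAs then receive poly(A) tails, and in some of them the tail completes the stop codon. Their products are core subunits of the respiratory chain: the mt-Nd genes encode subunits of complex I, mt-Cytb of complex III, mt-Co1, mt-Co2 and mt-Co3 of complex IV, and mt-Atp6 and mt-Atp8 of the ATP synthase. The rRNAs mt-Rnr1 and mt-Rnr2 and the tRNAs serve translation inside the organelle. All proteins needed for transcription and RNA handling there are encoded in the nucleus.

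Of the 37 genes, 15 had counts: the 13 protein-coding genes and both rRNAs, and all 15 passed the filter on low counts. The 22 tRNA genes are 59 to 75 bases long and were listed at 0 in every library, with an effective length of 0, and the mean fragment length of the libraries was 287 to 321 bases. They were not measurable with these libraries, and a listed 0 is no level. As an example of a gene at the precursor's cutting points, mt-Tl1 (a leucine tRNA at chrM:2676-2750, plus strand, GRCm38) lies between mt-Rnr2 and mt-Nd1. The sequences here and below are those of the GENCODE M21 transcripts or, for the nuclear copies, of the same release.

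mt-Tl1: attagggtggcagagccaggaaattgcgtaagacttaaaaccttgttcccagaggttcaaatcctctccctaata

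Fragment length also governs the shortest messenger RNAs. mt-Atp8, at chrM:7766-7969, is 204 bases long and shares its last 43 bases with mt-Atp6. Its sequence is shown because the gene is shorter than the mean fragment, and the capitals mark the bases shared with mt-Atp6.

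mt-Atp8: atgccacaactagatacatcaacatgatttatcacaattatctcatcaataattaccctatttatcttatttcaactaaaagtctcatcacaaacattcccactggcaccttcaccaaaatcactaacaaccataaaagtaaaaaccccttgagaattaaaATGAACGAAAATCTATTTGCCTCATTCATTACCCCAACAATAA

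RSEM gave it an effective length of only 1.76 to 3.32 bases. In consequence mt-Atp8 held 5.82% to 14.2% of all TPM (a level divided by that length and scaled to a fixed sum) in a library, while its level was 97.7 to 457 CPM (its expected count scaled to the same library total in all libraries). The 37 genes together held 15.2% to 31.5% of TPM but 4.67% to 11.9% of counts, and 6.75% to 14.2% of TPM once mt-Atp8, mt-Nd4l and mt-Nd3 were left out. Counts were therefore used below unless TPM is named.

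The annotated ends of the coding genes differ. mt-Co3 (784 bases), mt-Nd4 (1378 bases) and mt-Cytb (1144 bases) are 1 base longer than a multiple of 3 and stop after a single T, whereas the other 10 protein-coding genes end in a whole stop codon. The last 30 bases of these 3 and of mt-Co1 are given for comparison, with the last whole or incomplete codon in capitals.

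mt-Co1 (chrM:6843-6872): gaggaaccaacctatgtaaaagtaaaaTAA
mt-Co3 (chrM:9361-9390): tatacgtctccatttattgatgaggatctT
mt-Nd4 (chrM:11515-11544): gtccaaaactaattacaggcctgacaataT
mt-Cytb (chrM:15259-15288): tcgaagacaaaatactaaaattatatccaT

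A stretch of nuclear chromosome 1 (chr1:24611535-24616197, minus strand) holds unprocessed pseudogene copies of 7 mitochondrial genes at 99% identity or more. Reads from identical stretches cannot be told apart, so the split of counts between each gene and its copy is an estimate of the counting program. The copy Gm28661 matches mt-Co2 without a difference over 681 bases and was given 74.4% to 86.5% of the counts of the pair (median 83.8%) in the 12 libraries. The copies of mt-Nd4l (Gm10222, 294 identical bases), mt-Atp6 (Gm10925, 678) and mt-Co3 (Gm28437, 783) were given medians of 78.3%, 66.7% and 59.2%. The 3 other copies were given far less, with medians of 2.36% for the mt-Nd3 copy Gm28438, 0.419% for the mt-Nd4 copy Gm28439 and 0.120% for the mt-Co1 copy Gm29216. The end of mt-Co2 is printed because its stop codon, in capitals, is all that lies outside the copy.

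mt-Co2 (chrM:7637-7696): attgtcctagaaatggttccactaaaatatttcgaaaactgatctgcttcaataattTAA

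mt-Co1 and mt-Nd3 each differ from their copy at a single aligned base, in capitals below. Counted from the gene's first base and with the mitochondrial base first, these are A1066T for mt-Co1 and T3C for mt-Nd3.

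mt-Co1 (chrM:6390-6413): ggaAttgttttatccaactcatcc
Gm29216 (chr1:24616165-24616188, minus strand): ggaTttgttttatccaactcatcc
mt-Nd3 (chrM:9459-9481): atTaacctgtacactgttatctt
Gm28438 (chr1:24613097-24613119, minus strand): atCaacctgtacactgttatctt

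**Figure D1:**
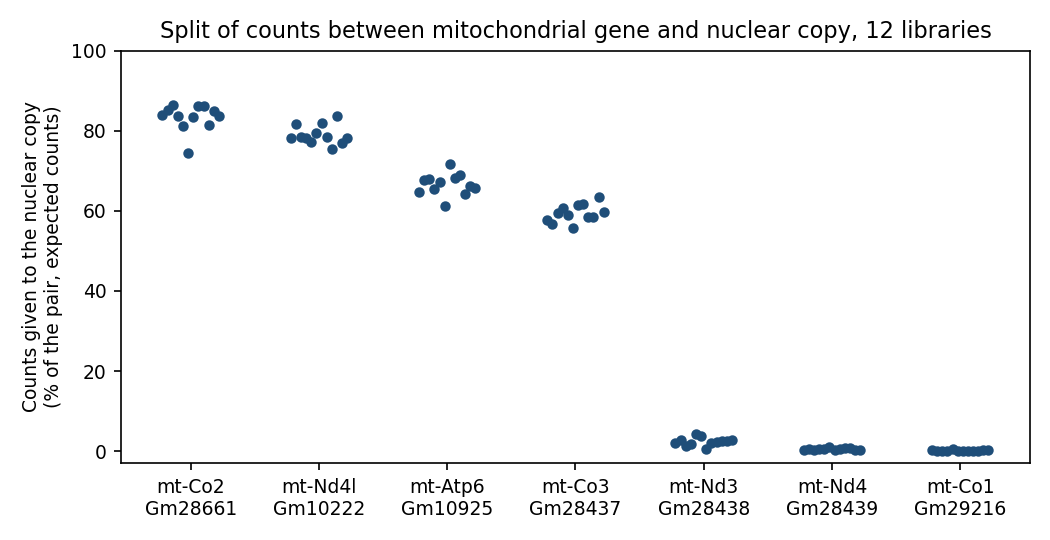
Percent of the expected counts of a mitochondrial gene and its near-identical nuclear copy that were given to the copy, with 1 point for each of the 12 libraries and the 7 pairs along the horizontal axis. For mt-Co2, mt-Nd4l, mt-Atp6 and mt-Co3 the copy took 55.8% to 86.5% of the pair's counts, and for the other 3 pairs at most 4.28%.

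Totals ran between 17869865 and 48723436 expected counts per library, with the second highest at 29882439. GSK3 knockout libraries had 23.0 to 32.1 CPM of Gsk3a, against 65.4 to 128 CPM in the 8 unmodified libraries, and 41.9 to 59.5 CPM of Gsk3b, against 72.5 to 155 CPM. The 8 embryonic stem cell markers summed to 1541 to 3016 CPM over all libraries, and none was at 0 in any group.

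The share of all counts held by the 37 genes was lower with JQ1 in each setting. It was 4.67% and 4.82% in 2iL cells with JQ1, against 6.75% and 6.41% in 2iL cells with DMSO. In GSK3 knockout cells it was 7.20% and 8.43% with JQ1, against 10.7% and 11.2% with DMSO. In serum/LIF cells it was 6.45% and 7.51% with JQ1, against 9.44% and 11.9% with DMSO. JQ1 and DMSO libraries did not overlap in any of the 3 settings, and the log2 ratio of the group means was -0.47 ± 0.06 in 2iL, -0.48 ± 0.17 in knockout and -0.61 ± 0.28 in serum/LIF (SD combined from both groups, n = 2 each). With 2 libraries a group an exact two-sided permutation test cannot go below 0.333, and no test of the shares was run. Fewer mitochondrial transcripts per cell and more RNA from other genes cannot be told apart in a share, nor can fewer cells of a type and less RNA per cell in bulk samples. The same shares with the 7 nuclear copies added were 5.92% and 6.15% in 2iL with JQ1, against 8.39% and 7.85% with DMSO. They were 9.06% and 10.7% in knockout cells with JQ1, against 13.3% and 13.9% with DMSO. In serum/LIF they were 8.19% and 9.55% with JQ1, against 12.1% and 15.1% with DMSO, so that the groups again did not overlap.

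**Figure D2:**
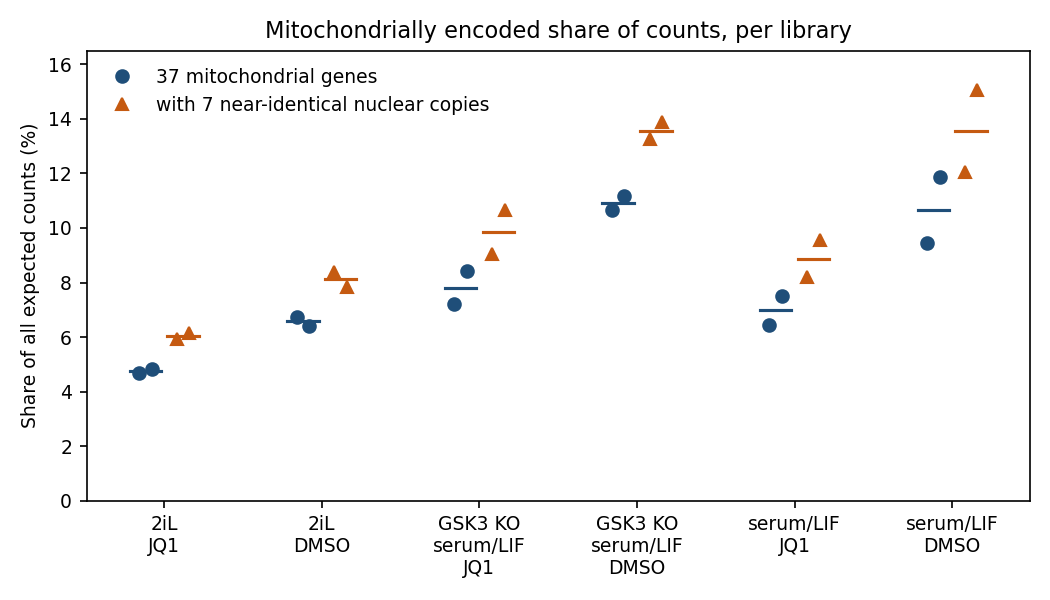
Share of all expected counts (percent) held by the 37 mitochondrial genes (circles) and by these with 7 near-identical nuclear copies (triangles), with 1 symbol per library and a line at each group mean, n = 2. Both JQ1 libraries lie below both DMSO libraries in each setting, and the 2iL libraries with DMSO (6.41% and 6.75%) lie below the serum/LIF libraries with DMSO (9.44% and 11.9%).

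The messenger RNAs made up most of this share, at 4.32% to 10.8% of all counts per library, and the rRNAs 0.319% to 1.02%. How an mRNA-seq kit samples rRNA depends on its selection step, which the labels do not describe. Per kilobase of gene, and with copies added, the highest levels in serum/LIF cells with DMSO were those of mt-Co2 (23882 ± 2646 CPM per kb), mt-Co1 (20900 ± 3742 CPM per kb) and mt-Atp6 (17934 ± 2518 CPM per kb; SD, n = 2). mt-Co3, mt-Nd1, mt-Cytb, mt-Nd4 and mt-Nd2 followed at 14930 ± 2235, 12472 ± 2476, 10149 ± 920, 8715 ± 1147 and 6193 ± 751 CPM per kb. The lower part of the order held mt-Rnr2 (5001 ± 1149), mt-Nd3 (4608 ± 1353), mt-Nd5 (4350 ± 606) and mt-Nd6 (3913 ± 765 CPM per kb), whose SD ranges overlap. mt-Atp8, mt-Nd4l and mt-Rnr1 closed it at 1742 ± 702, 1448 ± 419 and 836 ± 284 CPM per kb. Several neighbours in this order, mt-Atp8 and mt-Nd4l among them, lie within 1 SD of each other. The 2 shortest genes are those that fragments cover least. The order uses the annotated length, but the effective length was only 47.05 to 70.61 bases for mt-Nd3 and 200 to 233 for mt-Nd6. In TPM, which uses it, mt-Nd3 (25186.5 ± 3355) stood above mt-Nd1 (18944 ± 2875) in the same cells. mt-Nd6 (9457 ± 1139) stood above mt-Nd5 (5470 ± 549). Ranks of short genes thus depend on the length used. Without the copies mt-Co2 would stand at 3698 ± 204 CPM per kb, below mt-Nd6, which shows how far the estimated split sets its rank. mt-Nd6, the only protein-coding gene read from the other strand, overlaps mt-Nd5 by 14 bases. The strand setting is not given in the sources used here, so reads of mt-Nd6 and of transcripts opposite to it cannot be told apart.

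In serum/LIF cells JQ1 lowered 13 of the 15 measured genes: 12 of 13 messenger RNAs and mt-Rnr2 (adjusted p under 0.05 in edgeR's quasi-likelihood test, Benjamini-Hochberg over 16987 genes). Over all genes tested 21.3% passed in this comparison in either direction, and 12.8% were lower. The median log2 fold change of the 15 genes was -0.62, against -0.02 over all genes. mt-Co1, the catalytic core of complex IV, had 18506 and 21605 CPM with JQ1 and 28125 and 36337 CPM with DMSO. Both JQ1 libraries lay below both DMSO libraries, and the log2 fold change was -0.69 ± 0.13 (SE; adjusted p = 0.00296). mt-Co3, another complex IV core subunit, had a log2 fold change of -0.81 ± 0.14 (adjusted p = 0.00178), and mt-Cytb, the complex III subunit that binds the haem groups passing electrons between its quinone sites, one of -0.59 ± 0.12 (adjusted p = 0.00537). Among complex I genes mt-Nd4 had a log2 fold change of -0.57 ± 0.12 (adjusted p = 0.00689) and mt-Nd6 of -0.69 ± 0.19 (adjusted p = 0.0227). The values of mt-Rnr1 were -0.22 ± 0.21 (adjusted p = 0.502) and of mt-Nd4l -0.61 ± 0.24 (adjusted p = 0.0877). The count rests on individual libraries: without the second serum/LIF DMSO library, which had the highest share of all, 3 genes passed, and without the first serum/LIF JQ1 library 5 did. It was also 3 when only these 4 libraries entered the fit. There mt-Co1, mt-Cytb, mt-Nd4 and mt-Nd6 missed the threshold (adjusted p = 0.0814, 0.0795, 0.0999 and 0.0529), whereas mt-Nd4l passed (adjusted p = 0.0345). mt-Nd4l also passed with the copies added and in DESeq2 (adjusted p = 0.0319 and 0.0439). mt-Rnr2, mt-Co2 and mt-Atp8 also missed the threshold without some other libraries. mt-Rnr2 had an adjusted p of 0.0553 to 0.0557 without either 2iL JQ1 or either knockout DMSO library. mt-Co2 had 0.103 without the first serum/LIF DMSO library and 0.0646 and 0.0648 without either 2iL JQ1 library, and mt-Atp8 had 0.0716 without the second serum/LIF JQ1 library.

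In 2iL cells 5 of the 15 genes fell with JQ1, namely mt-Rnr1, mt-Co1, mt-Co2, mt-Atp6 and mt-Co3, where 28.5% of all genes passed and 17.3% were lower. The median log2 fold change was -0.34, against -0.06 over all genes. mt-Co1 had 14959 and 15775 CPM with JQ1 and 24533 and 22910 CPM with DMSO, a log2 fold change of -0.53 ± 0.13 (adjusted p = 0.00931). The small-subunit rRNA mt-Rnr1 had 192 and 173 CPM with JQ1, against 370 and 327 CPM with DMSO. Its groups did not overlap either, and it had one of the 2 largest falls in this setting, -0.83 ± 0.21 (adjusted p = 0.0113), the other being mt-Co2 at -0.86 ± 0.22 (adjusted p = 0.0114). With the copies added, mt-Co2 had -0.31 ± 0.14 (adjusted p = 0.122), mt-Atp6 -0.21 ± 0.13 (adjusted p = 0.262) and mt-Co3 -0.26 ± 0.13 (adjusted p = 0.149), so these 3 calls did not hold without the estimated split, and 2 genes passed. mt-Cytb (-0.09 ± 0.12), mt-Nd2 (-0.12 ± 0.14) and mt-Nd5 (-0.13 ± 0.11) did not pass (adjusted p = 0.64, 0.547 and 0.419). Leaving out any 1 of the 4 libraries compared changed the count by more than 1.5 times: 1 gene passed without the first DMSO or the second JQ1 library, 2 without the first JQ1 and 3 without the second DMSO library. mt-Co3 did not pass without the second knockout DMSO library either (adjusted p = 0.0577). With the replicate number as a block within each setting, 8 genes passed, mt-Nd1, mt-Nd3 and mt-Nd4 in addition, where 35.0% of all genes did.

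In GSK3 knockout cells 4 of the 15 genes fell with JQ1, namely mt-Co1, mt-Atp8, mt-Nd4 and mt-Nd5, where 34.1% of all genes passed and 19.5% were lower. The median was -0.37, against -0.06 over all genes, and 14 of the 15 values were below 0. mt-Nd5, a proton-pumping subunit of complex I, had 4991 and 5631 CPM with JQ1 and 8876 and 8482 CPM with DMSO. Its libraries lay clearly apart by treatment, with a log2 fold change of -0.67 ± 0.11 (adjusted p = 0.000871). mt-Co1 had 22851 and 24617 CPM with JQ1, against 37804 and 37550 CPM with DMSO, a log2 fold change of -0.63 ± 0.13 (adjusted p = 0.00296). mt-Rnr1 was the exception, with 917 and 1070 CPM with JQ1, 848 and 899 CPM with DMSO and a log2 fold change of 0.23 ± 0.21 that did not pass (adjusted p = 0.427). With the copies added, mt-Co2 (-0.43 ± 0.14, adjusted p = 0.0356) and mt-Nd4l (-0.67 ± 0.23, adjusted p = 0.0371) passed as well, and 6 genes in all. Without the first knockout JQ1 library 2 genes passed, and mt-Nd4 and mt-Atp8 did not (adjusted p = 0.0914 and 0.157). mt-Atp8 did not pass without the second knockout DMSO library either (adjusted p = 0.102). With the replicate number as a block within each setting, 9 genes passed, mt-Nd1, mt-Nd2, mt-Co2, mt-Atp6 and mt-Nd6 in addition, where 40.9% of all genes did.

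mt-Co1 is the 1 gene that passed in all 3 settings in the main fit of all 12 libraries. In serum/LIF it missed the threshold with only the groups compared (adjusted p = 0.0814). Averaged over the settings, 14 of the 15 genes fell with JQ1, where 45.6% of all genes passed and 25.6% were lower, with a median of -0.46 against -0.05 over all genes. mt-Co1 fell by 0.61 ± 0.07 on average (adjusted p = 3.2e-05) and mt-Atp8 by 0.61 ± 0.17 (adjusted p = 0.0121). mt-Co2 had -0.66 ± 0.13 on its own row (adjusted p = 0.000941) and -0.45 ± 0.08 with its copy added (adjusted p = 0.000737). mt-Cytb had the smallest of the 14 that passed, at -0.30 ± 0.07 (adjusted p = 0.004). mt-Rnr1 had -0.27 ± 0.12 (adjusted p = 0.0815), an average of settings that differ in sign, and passed with library size only, in DESeq2 and with the replicate block within each setting (adjusted p = 0.0449, 0.0475 and 0.0016). mt-Nd4l passed at -0.37 ± 0.14 (adjusted p = 0.0459), but not without the second serum/LIF DMSO, the first serum/LIF JQ1, the second knockout DMSO or the first knockout JQ1 library (adjusted p = 0.125, 0.0646, 0.0509 and 0.112). Whether settings differ was tested directly. The JQ1 response in 2iL minus that in serum/LIF passed for 0 of the 15 genes in edgeR (2 at an unadjusted p under 0.05, 1 in DESeq2; 4.16% of all genes passed), and the response in knockout minus that in serum/LIF for 0 (1 unadjusted, 0 in DESeq2; 4.37% of all genes). With the replicate number as a block within each setting, 2 genes passed in the first (mt-Rnr1 and mt-Atp8; 8.61% of all genes) and 2 in the second (mt-Co3 and mt-Nd3; 12.7% of all genes).

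**Figure D3:**
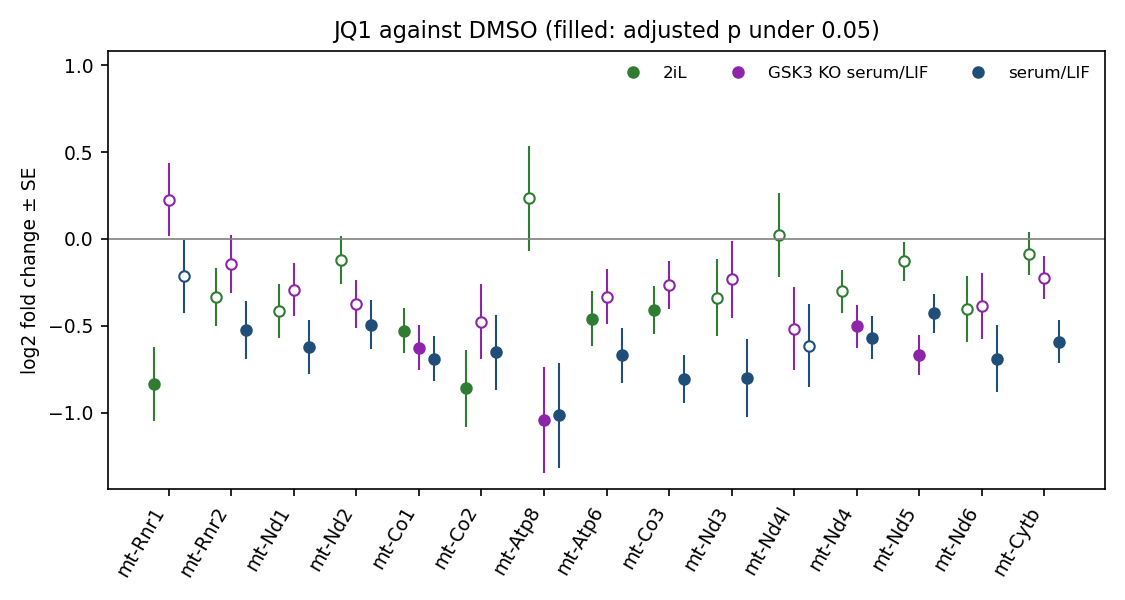
log2 fold change of JQ1 against DMSO with its standard error (vertical axis) for the 15 measured mitochondrial genes, in genome order, in 2iL, GSK3 knockout and serum/LIF cells, from edgeR with 2 libraries a group. Filled points have an adjusted p under 0.05: 5 in 2iL, 4 in knockout and 13 in serum/LIF cells, all below 0. mt-Atp8 and mt-Rnr1 are spread widest between settings, mt-Atp8 between -1.04 in knockout and 0.23 in 2iL cells, and mt-Rnr1 between -0.83 in 2iL and 0.23 in knockout cells.

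mt-Atp8 carries a measured fact beside its values. It had 98 and 190 CPM in 2iL with JQ1, against 126 and 137 CPM with DMSO, so that these groups overlapped, and 164 and 189 CPM in serum/LIF with JQ1, against 254 and 457 CPM with DMSO. Its highest values in each of these settings came from the second 2iL JQ1 and the second serum/LIF DMSO library, which had the shortest mean fragments of all (290 and 287 bases). Of 100 counts of the protein-coding genes mt-Atp8 took 0.42 in both, and 0.33 in both with the copies added. In knockout cells mt-Atp8 had 108 and 159 CPM with JQ1, against 252 and 313 CPM with DMSO. Mean fragments there were 309 and 300 bases with JQ1, against 310 and 300 bases with DMSO. The part of fragment length in the differences of mt-Atp8 was not tested.

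Without JQ1, 2iL cells had lower levels than serum/LIF cells for 14 of the 15 genes, all but mt-Co2, where 54.8% of all genes passed and 26.5% were lower. The median log2 fold change was -0.91, against 0.04 over all genes. mt-Cytb had 7073 and 5970 CPM in 2iL and 10866 and 12355 CPM in serum/LIF, and mt-Nd5 had 4848 and 4782 CPM in 2iL, against 7152 and 8716 CPM in serum/LIF. Groups were apart for both, with log2 fold changes of -0.90 ± 0.12 (adjusted p = 4.83e-05) and -0.79 ± 0.11 (adjusted p = 7.04e-05). The rRNAs were lower too, mt-Rnr1 at -1.26 ± 0.21 (adjusted p = 0.000253) and mt-Rnr2 at -0.96 ± 0.17 (adjusted p = 0.000346). mt-Co1 was lower by less than most, at -0.51 ± 0.13 (adjusted p = 0.0048). mt-Co2 on its own row had -0.35 ± 0.22 (adjusted p = 0.196). The pooled row of mt-Co2 and its copy had 9620 and 9230 CPM in 2iL, against 15055 and 17615 CPM in serum/LIF. There the libraries did not overlap and the log2 fold change was -0.86 ± 0.14 (adjusted p = 0.000234), so that all 15 genes passed. Without the second serum/LIF DMSO library 11 genes passed, and mt-Co1, mt-Nd3 and mt-Nd4l did not (adjusted p = 0.0598, 0.0568 and 0.0533). With JQ1 in both media 12 of the 15 genes were lower in 2iL, all but mt-Atp8, mt-Nd3 and mt-Nd4l, with a median of -0.55 (53.3% of all genes passed, 27.9% lower). mt-Rnr1 had the largest difference there, -1.88 ± 0.22 (adjusted p = 9.64e-06).

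Between GSK3 knockout and unmodified cells in serum/LIF with DMSO, 1 of the 15 genes passed. This was mt-Co3, lower at -0.39 ± 0.14 (adjusted p = 0.0415), where 40.0% of all genes passed in either direction, and the median was -0.02, against 0.01 over all genes. The share of counts was 10.7% and 11.2% in knockout cells, inside the 9.44% and 11.9% of serum/LIF cells, a log2 ratio of 0.04 ± 0.24 (SD). mt-Co3 did not pass without either knockout DMSO library or without the second serum/LIF DMSO library (adjusted p = 0.203, 0.0889 and 0.320). With JQ1 in both, mt-Rnr1 (0.60 ± 0.21, adjusted p = 0.0341) and mt-Nd1, a complex I subunit at its quinone site (0.40 ± 0.15, adjusted p = 0.0496), were higher in knockout than in unmodified cells, where 44.0% of all genes passed and 20.4% were higher. No gene passed there without the second knockout JQ1, the first serum/LIF JQ1 or either 2iL JQ1 library, 1 passed without any 1 DMSO library of 2iL or knockout cells, and 4 passed without the first knockout JQ1 or the second serum/LIF JQ1 library. The 2iL and the knockout comparisons share their serum/LIF libraries. Each JQ1 comparison uses the DMSO libraries of its own setting, which also enter the comparisons between settings with DMSO.

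**Figure D4:**
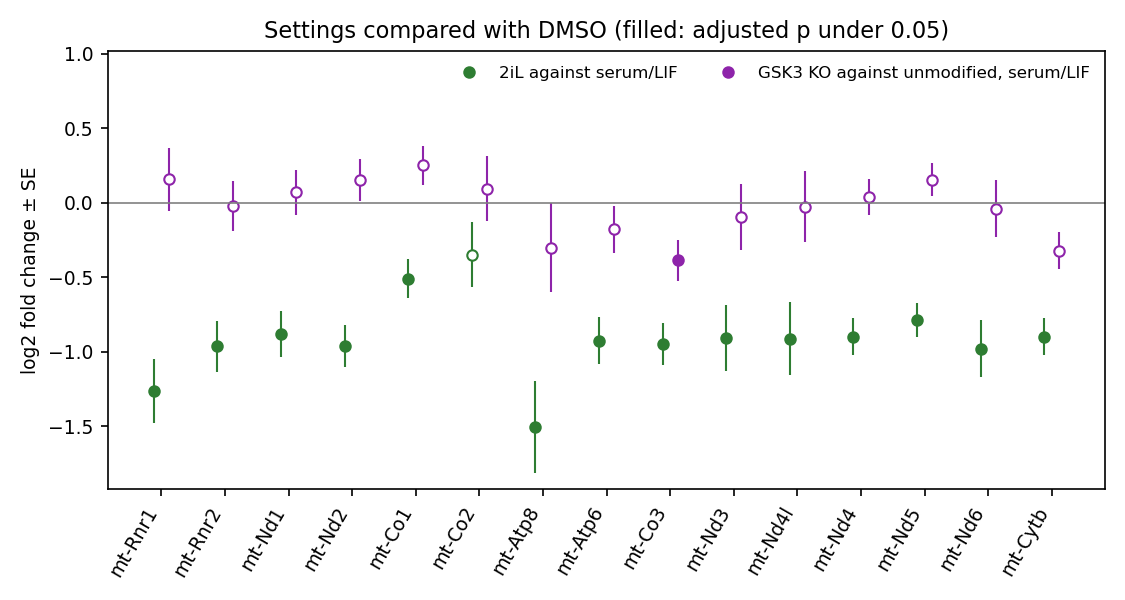
log2 fold change with its standard error (vertical axis) for the 15 measured mitochondrial genes, for 2iL against serum/LIF and for GSK3 knockout against unmodified cells in serum/LIF, all with DMSO and 2 libraries a group. Filled points have an adjusted p under 0.05: 14 genes for 2iL, between -1.50 and -0.51, and mt-Co3 alone for the knockout, at -0.39.

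The makeup of the mitochondrial RNA, expressed as counts of a gene per 100 counts of the 13 protein-coding genes, does not depend on scaling between libraries. It does depend on the estimated split. Unless stated otherwise, the values are those of the genes' own rows, without the counts given to the nuclear copies. mt-Rnr1 stood at 0.44 and 0.38 in 2iL cells with JQ1, against 0.59 and 0.55 with DMSO. In knockout cells it stood at 1.40 and 1.42 with JQ1, against 0.87 and 0.87 with DMSO, and in serum/LIF cells at 0.95 and 1.20 with JQ1, against 0.70 and 0.91 with DMSO. Relative to the messenger RNAs it was thus lower with JQ1 in 2iL, higher with JQ1 in knockout and in serum/LIF cells, with no overlap in any setting. The log2 ratio was -0.46 ± 0.16 in 2iL, 0.70 ± 0.01 in knockout and 0.42 ± 0.37 in serum/LIF cells (SD, n = 2), the last little more than its SD. Against mt-Rnr2, with which it shares a precursor, mt-Rnr1 had 5.85 and 5.74 counts per 100 in 2iL with JQ1 and 8.98 and 7.46 with DMSO. In knockout cells it had 15.8 and 14.0 per 100 with JQ1 and 10.6 and 12.3 with DMSO, and in serum/LIF cells 11.2 and 13.6 with JQ1 and 9.15 and 10.8 with DMSO. The ratio of the rRNAs followed the same directions by setting. Counts of rRNA also depend on the kit's selection step, which the labels do not describe, and its part in these ratios was not tested. With the copies added to the protein-coding genes, mt-Rnr1 stood lower per 100 but moved in the same directions. It was then 0.344 and 0.297 in 2iL with JQ1, against 0.466 and 0.442 with DMSO. In knockout cells it was 1.09 and 1.09 with JQ1, against 0.685 and 0.689 with DMSO. In serum/LIF cells it was 0.730 and 0.927 with JQ1, against 0.535 and 0.705 with DMSO.

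mt-Co1 was the most abundant row throughout, at 31.4 to 38.9 per 100 (24.2 to 31.1 with the copies added). It took 34.6 and 35.0 in 2iL with JQ1, against 38.9 and 38.6 with DMSO, 35.0 and 32.6 in knockout cells with JQ1, against 38.7 and 36.3 with DMSO, and 31.4 and 31.7 in serum/LIF with JQ1, against 32.3 and 33.5 with DMSO. JQ1 libraries thus lay below DMSO libraries in each setting. mt-Nd5 took 7.45 to 9.98 per 100 in the 12 libraries. After JQ1 it took a larger part in 2iL and in serum/LIF cells and a smaller part in knockout cells, with group means of 9.31 ± 0.36 against 7.87 ± 0.25, 9.34 ± 0.90 against 8.12 ± 0.11 and 7.55 ± 0.13 against 8.64 ± 0.62 (SD, n = 2). The difference between knockout and 2iL cells in the JQ1 response, a comparison added after the values of mt-Rnr1 had been seen, passed for 2 of the 15 genes, a share near the 12.1% of all genes that passed. They were mt-Rnr1 at 1.06 ± 0.30 (adjusted p = 0.0394) and mt-Nd5 at -0.54 ± 0.16 (adjusted p = 0.0464). With the replicate number as a block within each setting, mt-Atp8 passed as well (adjusted p = 0.00613), 3 genes in all, where 21.9% of all genes did.

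**Figure D5:**
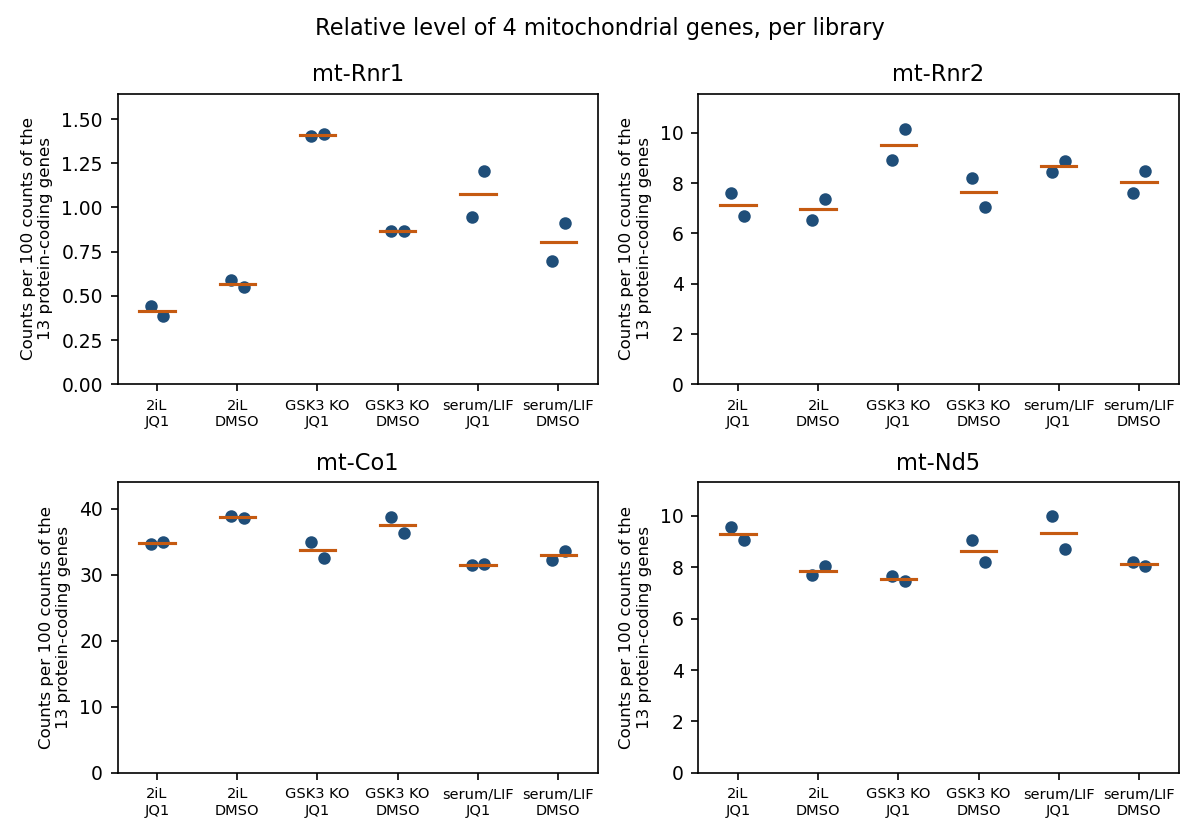
Counts of mt-Rnr1, mt-Rnr2, mt-Co1 and mt-Nd5 per 100 counts of the 13 protein-coding genes (vertical axes) in the 6 groups. There is 1 point per library and a line at the group mean, n = 2. Counts given to the nuclear copies are left out. mt-Rnr1 stands at 1.40 and 1.42 in knockout cells with JQ1 against 0.87 and 0.87 with DMSO, and at 0.44 and 0.38 in 2iL with JQ1 against 0.59 and 0.55 with DMSO.

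Genes that make and handle mitochondrial RNA are encoded in the nucleus and were read from lists chosen with earlier results of these data known. Of 18 tested genes for transcription and replication of the mitochondrial genome, 2 rose and 5 fell with JQ1 on average, where 19.9% of all genes rose and 25.6% fell. Tfam, which packages the genome and starts transcription, had 0.18 ± 0.07 (adjusted p = 0.0666), and the mitochondrial RNA polymerase Polrmt -0.10 ± 0.06 (adjusted p = 0.203). Among those that passed were the nuclease Mgme1 (-0.57 ± 0.08, adjusted p = 0.000151), the topoisomerase Top1mt (-0.44 ± 0.14, adjusted p = 0.0215), the methyltransferase Tfb1m (0.38 ± 0.11, adjusted p = 0.0134) and Mterf3 (0.28 ± 0.09, adjusted p = 0.0164). In 2iL against serum/LIF cells 8 rose and 4 fell, where 28.3% of all genes rose and 26.5% fell. Polrmt had 49.4 and 46.5 CPM in 2iL, against 85.9 and 97.7 CPM in serum/LIF, so the groups were well apart, with a log2 fold change of -1.0 ± 0.11 (adjusted p = 5.11e-06), while the primase-polymerase Primpol rose by 1.19 ± 0.15 (adjusted p = 1.65e-05). In knockout against unmodified cells, where 18.9% of all genes rose and 21.0% fell, 5 rose, Tfam among them (0.35 ± 0.13, adjusted p = 0.0478), and 1 fell, the DNA polymerase subunit Polg (-0.66 ± 0.10, adjusted p = 0.000209).

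Of 22 genes for processing, stability and decay of mitochondrial RNA, 4 rose and 6 fell with JQ1 on average, near the 19.9% and 25.6% of all genes. Lrpprc, which binds and stabilises mitochondrial messenger RNAs, had 210 and 205 CPM in 2iL with JQ1, against 162 and 182 CPM with DMSO, and 236 and 233 CPM in knockout cells with JQ1, against 196 and 194 CPM with DMSO. In serum/LIF it had 179 and 184 CPM with JQ1, against 146 and 159 CPM with DMSO. It was higher with JQ1 in each setting without overlap, and rose by 0.31 ± 0.05 on average (adjusted p = 0.000507), while its partner Slirp had -0.03 ± 0.10 (adjusted p = 0.85). In 2iL against serum/LIF cells 10 of the 22 rose and 5 fell (28.3% and 26.5% of all genes), with Fastk at 0.78 ± 0.12 (adjusted p = 9.3e-05) and Fastkd5, which in human cells is needed for maturation of messenger RNAs without flanking tRNAs, at -0.63 ± 0.12 (adjusted p = 0.000479). In knockout against unmodified cells 8 rose and 4 fell (18.9% and 21.0% of all genes), with the RNA granule protein Grsf1 at 1.65 ± 0.17 (adjusted p = 8.75e-06) and the helicase Supv3l1 of the RNA-degrading complex at -0.94 ± 0.10 (adjusted p = 1.69e-05).

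Of 9 biogenesis regulators 8 were tested, of which 2 rose and 2 fell with JQ1 on average, near the 19.9% and 25.6% of all genes. The coactivator Ppargc1b had the largest fall, -1.53 ± 0.19 (adjusted p = 4.04e-05), at low levels. It had 1.79 and 2.08 CPM in 2iL with JQ1, against 6.90 and 9.0 CPM with DMSO, and 0.80 and 0.84 CPM in knockout cells with JQ1, against 4.77 and 3.14 CPM with DMSO. In serum/LIF it had 1.27 and 2.26 CPM with JQ1, against 2.63 and 2.05 CPM with DMSO, so that the groups overlapped there and in no other setting. In 2iL against serum/LIF cells 4 rose and 1 fell (28.3% and 26.5% of all genes), with Ppargc1b at 1.67 ± 0.30 (adjusted p = 0.000438) and the transcription factor Myc at -3.53 ± 0.16 (adjusted p = 3.79e-09). In knockout against unmodified cells 2 rose and 1 fell (18.9% and 21.0% of all genes), with Gabpa at 0.75 ± 0.12 (adjusted p = 0.000261) and Esrra at -0.55 ± 0.20 (adjusted p = 0.046).

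A chosen list of 28 respiratory chain subunits encoded in the nucleus was read beside the mitochondrial messenger RNAs. It includes subunits of complex II, to which no mitochondrially encoded protein belongs. In 2iL against serum/LIF cells 21 of 28 rose and 0 fell, where 28.3% of all genes rose and 26.5% fell, with a median of 0.42 against 0.04 over all genes. Atp5g1 of the ATP synthase (0.88 ± 0.15, adjusted p = 0.000264) and Sdhc of complex II (0.88 ± 0.15, adjusted p = 0.000301) had the largest rises. With JQ1, 0 rose and 3 fell in serum/LIF (8.54% of all genes rose and 12.8% fell), and 1 rose and 2 fell in 2iL (11.2% and 17.3%). In knockout cells 14 rose and 0 fell (14.6% and 19.5%), and the median was 0.29, against -0.06 over all genes. Tested directly, the JQ1 response in knockout minus that in serum/LIF passed for 0 of the 28 (4.37% of all genes). Knockout minus 2iL, added after seeing the data, passed for 7, all above 0 (12.1% of all genes passed in either direction). The catalytic complex II subunit Sdha rose by 0.43 ± 0.06 on average with JQ1 (adjusted p = 7.37e-05), and Cox7c, a small complex IV subunit, fell by 0.42 ± 0.10 (adjusted p = 0.00534).

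Markers of the fibroblasts used as feeders were also lower with JQ1. The 12 markers summed to 150 to 201 CPM in knockout cells with JQ1, against 288 to 435 CPM with DMSO, and to 330 to 336 CPM in serum/LIF with JQ1, against 803 to 810 CPM with DMSO. None was at 0 in both libraries of one of these groups, and Lum was at 0 in the second knockout JQ1 library. Of 11 tested, 8 were lower with JQ1 in knockout cells, where 19.5% of all genes were, and 10 in serum/LIF cells, where 12.8% were. In 2iL they summed to 6.02 to 7.95 CPM with JQ1, against 10.7 to 16.4 CPM with DMSO, and 5 of 11 were lower, where 17.3% of all genes were. There 5 of 12 were at 0 in each group, among them Postn, Dcn and Lum, and the mitochondrial share was 4.67% and 4.82% with JQ1, against 6.75% and 6.41% with DMSO. The part of the markers in the mitochondrial differences in serum/LIF and knockout cells, and between 2iL and serum/LIF, was not tested.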

How the data were processed

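RNA from 12 libraries of mouse embryonic stem cells was sequenced as paired reads of 150 bases. Per the submitters' processing notes the authors worked on the mm10 build with STAR 2.5.2, RSEM, bcl2fastq and DESeq2 1.18.1. The annotation release and strand setting are not given in the sources used here. The deposited values used are expected counts per gene, which are not scaled to depth. In each library 6.11% to 8.71% of them carried a fraction. The deposited TPM served an alternative share, and the deposited FPKM were not used. Of 52550 identifiers 52403 (99.72%) matched GENCODE M21 (GRCm38) without their version.

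Expected counts were rounded, genes with low counts removed (edgeR's filterByExpr, minimum count 10, minimum total 15), and 16987 genes fitted over all 6 groups with TMM scaling and the quasi-likelihood test of edgeR 4.0.16 (R 4.3.3). Tests were two-sided, with Benjamini-Hochberg adjustment over all genes and a threshold of 0.05, and the standard error is the fold change over the root of F. CPM are expected counts divided by the library total and scaled to a common sum. Nuclear copies were found with BLAST 2.17.0 (at least 99% identity over 200 bases). Only the transcript strand was searched. Matches on 1 chosen nuclear chromosome, which is not the chromosome 1 of the copies above, were left out, and no reason is given. The fit was also run on simulated data with the same spread for all genes, and no result here rests on that run. Alternatives were other scalings, filters, DESeq2 1.42.0, smaller fits, a replicate block, each library left out, TPM shares and, chosen after seeing the data, copies pooled, a block within each setting, the response in knockout minus 2iL and TPM shares without 3 short genes. The members and lists were chosen with earlier results of these data known. All 15 measured members are named. Of the lists, Tfam, Polrmt, Lrpprc and Slirp are named, and others are among the 2 highest and 2 lowest per list or fewer, limited to passing genes whose level reached 5 CPM in some group. Deviations of same-numbered JQ1 and DMSO libraries from their group means correlated at 0.117 to 0.185 within the 3 settings and those of the 12 pairs across settings at -0.186 to 0.177. The labels give no source for a pairing, and a block within each setting is given beside the results it moves. SDs cover the spread between the 2 libraries of a group, and standard errors and p-values rest on a spread estimated over all 6 groups.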

Additional observations from a re-analysis of the deposited data

Results flagged for a closer look

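The JQ1 responses of 2 mitochondrial genes differed between GSK3 knockout cells and 2iL cells by a test of the difference itself, in a comparison chosen after the values of mt-Rnr1 had been seen. This is a share of the 15 measured genes near the 12.1% of all genes that passed. mt-Rnr1 had a log2 fold change with JQ1 of 0.23 ± 0.21 in knockout cells and -0.83 ± 0.21 in 2iL cells, a difference of 1.06 ± 0.30 (SE; adjusted p = 0.0394, edgeR). With each library left out in turn it ran between 0.92 and 1.19. mt-Nd5 had -0.67 ± 0.11 in knockout cells and -0.13 ± 0.11 in 2iL cells, a difference of -0.54 ± 0.16 (adjusted p = 0.0464), and between -0.65 and -0.43 with a library left out. Without any 1 of the 8 libraries compared, 0 or 1 of the 15 measured genes passed.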

How the results depend on the processing

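The log2 ratio of shares kept its sign in the 3 JQ1 comparisons and for 2iL against serum/LIF under each alternative. For JQ1 in 2iL it was -0.21 by TPM and -0.39 by TPM without mt-Atp8, mt-Nd4l and mt-Nd3. With each library left out the ratio ran between -0.76 and -0.44 for JQ1 in serum/LIF, -0.51 and -0.43 in 2iL, -0.60 and -0.37 in knockout, -0.85 and -0.52 for 2iL against serum/LIF and -0.12 and 0.21 for knockout against unmodified cells.

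The number of the 15 genes that passed moved by more than 1.5 times as follows. The share of all genes that passed under the same alternative is not given beside these counts. They therefore show how calls depend on processing and are no result particular to the mitochondrial genes. For JQ1 in serum/LIF it was 3 with only the groups compared. For JQ1 in 2iL it was 3 under RLE scaling, 10 without the low-count filter and 2 with copies pooled. For JQ1 in knockout cells it was 10 without the filter and 7 with the replicate block. For knockout against unmodified cells with DMSO it was 2 under RLE scaling, library size only, scaling by nuclear genes, the 1 CPM filter, the replicate block, only the groups compared and DESeq2, and 3 without the filter. With JQ1 in both it was 8 without the filter, 4 with the replicate block, 0 with library size only, and 1 under RLE, nuclear scaling, the 1 CPM filter, only the groups compared and DESeq2. The response in 2iL minus serum/LIF passed for 4 genes without the filter and 1 with the replicate block or DESeq2, knockout minus serum/LIF for 2 without the filter, and knockout minus 2iL for 4 without the filter and 1 with library size only. With each library left out the counts ran between 3 and 13, 1 and 6, and 2 and 5 for JQ1 in serum/LIF, 2iL and knockout, and between 13 and 15 for the average. They ran between 11 and 14 for 2iL against serum/LIF with DMSO, 8 and 13 with JQ1, 0 and 2 for knockout with DMSO, 0 and 4 with JQ1, 0 and 2 for 2iL minus serum/LIF, 0 and 0 for knockout minus serum/LIF, and 0 and 3 for knockout minus 2iL. The average has no fit with only the groups compared, since it uses all groups. The cause of these changes was not tested.

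The sign changed for mt-Nd4l with JQ1 in 2iL (0.02; -0.076 with library size only, -0.0012 with the 1 CPM filter, -0.0072 with the replicate block and -0.043 with the block within each setting) and for mt-Nd4 in knockout against unmodified cells (0.04; -0.021 under RLE and DESeq2). With libraries left out it also changed for mt-Rnr1 with JQ1 in serum/LIF (-0.52 to 0.18), in 2iL for mt-Atp8 (-0.32 to 0.65), mt-Cytb (-0.20 to 0.061) and mt-Nd4l (-0.56 to 0.45), and in knockout for mt-Rnr2 (-0.37 to 0.064). For knockout against unmodified cells it changed for mt-Rnr1 (-0.15 to 0.55), mt-Rnr2 (-0.24 to 0.24), mt-Nd1 (-0.12 to 0.29), mt-Co2 (-0.20 to 0.35), mt-Atp8 (-0.66 to 0.18), mt-Nd3 (-0.36 to 0.24), mt-Nd4 (-0.087 to 0.18), mt-Nd6 (-0.22 to 0.18) and mt-Nd4l (-0.19 to 0.16).

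By library size only, genes passing with JQ1 in 2iL were 1151 higher and 3514 lower over all genes, against 1896 and 2938, and in knockout minus 2iL 1212 and 907, against 918 and 1137. This scaling moved the median of all genes in 2iL minus serum/LIF to -0.15, against -0.05. The replicate block within each setting, added after seeing the data, moved the counts to 8 for JQ1 in 2iL, 9 for JQ1 in knockout cells, 2 for 2iL minus serum/LIF and 2 for knockout minus serum/LIF, and left 13 for serum/LIF and 15 for the average. The lone library left in a group is assumed to vary like the others.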
